A study of Mus musculus with 12 samples.

Results

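Hypoxia-response genes and the regulators of the hypoxia-inducible factors (HIF) were followed in RNA-seq libraries of 3T3-L1 adipocytes, fat cells differentiated in culture from a mouse preadipocyte line. The genes were chosen by name, with earlier results of these data known, so the counts below are not those of an independent list. Of 44 symbols listed, 40 matched a row among the 27473 features of the deposited count table. Arnt, Higd1a, Jmjd6 and Ankrd37 matched no row and were not analysed here. The table held 12 libraries in 4 groups of 3. In the first pair of groups, mature adipocytes received lentivirus carrying a hairpin RNA against Dnmt3a (shDnmt3a) or a scrambled hairpin (shScr). In the second pair they received lentivirus for Dnmt3a in the vector pCDH (Dnmt3a) or for GFP in the same vector (GFP). Cells of all 4 groups were transduced on day 8 of differentiation and harvested 4 days later, and the labels name no low-oxygen treatment. All libraries came from a single cell line, and the sources used here do not say whether the hairpin libraries rest on 1 hairpin or more. The series' design calls the libraries biological triplicates. Separate cultures are not stated, so a p-value here speaks of the scatter among 3 libraries and may hold technical scatter alone.

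HIF is a transcription factor made of an oxygen-regulated alpha subunit (Hif1a, Epas1 or Hif3a) and a constant beta subunit (Arnt). In the presence of oxygen, prolyl hydroxylases of the Egln family mark the alpha subunit, and the von Hippel-Lindau protein (Vhl) directs it to the proteasome. When oxygen falls, the alpha subunit accumulates and the dimer binds a short motif with the core RCGTG near its targets, which include glycolytic enzymes, angiogenic factors, collagen-modifying enzymes and Egln3 itself. This control acts mainly on the protein, so the mRNA of a HIF subunit is a separate quantity from HIF activity. Dnmt3a is a methyltransferase that places new methyl groups on cytosines of DNA.

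Total counts per library ran between 29084732 and 47341091. Dnmt3a itself was measured at 41.0, 39.3 and 39.4 CPM (counts relative to library size, scaled by TMM over all 12 libraries) in shDnmt3a libraries, against 81.2, 86.3 and 78.5 CPM in shScr libraries, a log2 fold change of -1.04. In Dnmt3a libraries it was 2743, 2776 and 2730 CPM, against 93.2, 90.7 and 96.6 CPM in GFP libraries, with transgene and endogenous transcripts counted together. The summed CPM of 9 adipocyte markers, among them Adipoq, Fabp4 and Pparg, was 14402 to 14788 in shDnmt3a libraries, 14653 to 15103 in shScr libraries, 22427 to 23126 in Dnmt3a libraries and 18146 to 19101 in GFP libraries. The sum of 7 preadipocyte and fibroblast markers was 541 to 603 CPM in shDnmt3a, 560 to 608 CPM in shScr, 459 to 473 CPM in Dnmt3a and 528 to 574 CPM in GFP libraries. The sum of 6 macrophage markers was at most 10.8 CPM in any library, with Emr1 at 0 in all of them, and that of 5 endothelial markers at most 2.45 CPM. The adipocyte sums of the hairpin groups overlapped, while those of Dnmt3a and GFP libraries did not. Single markers nevertheless differed on knock-down, where 23.3% of all features tested were called higher and 22.5% lower. Of the 9 adipocyte markers, Adipoq (log2 -0.22), Fabp4 (log2 -0.10) and Retn (log2 -1.25) were called lower in shDnmt3a than in shScr libraries. Plin1 (log2 0.11), Pparg (log2 0.15) and Cidec (log2 0.20) were called higher. Of the 7 preadipocyte and fibroblast markers, 3 were lower, among them Ly6a (log2 -1.35). Col1a1 (log2 0.41) and Acta2 (log2 0.19) were higher. On overexpression 8 of the 9 adipocyte markers were higher, where 14.3% of all features were higher. The part of these marker differences in the results that follow was not tested.

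Most hypoxia genes were more abundant when Dnmt3a was knocked down. Of the 40 genes, 33 were higher in shDnmt3a than in shScr libraries by edgeR's quasi-likelihood test at an adjusted p under 0.05, where 23.3% of all 14115 features tested were higher. Egln2 and Tfrc were lower, against 22.5% of all features. The other 5 genes, Epas1, Hif3a, Hif1an, Vegfb and Plaur, were not called. For 19 genes the increase was at least 2-fold, a size reached by 2.8% of the features tested. The median log2 fold change of the 40 genes was 0.85, while that of all features was -0.00027. In bulk RNA, more cells of a type and more RNA per cell cannot be told apart.

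**Figure D1:**
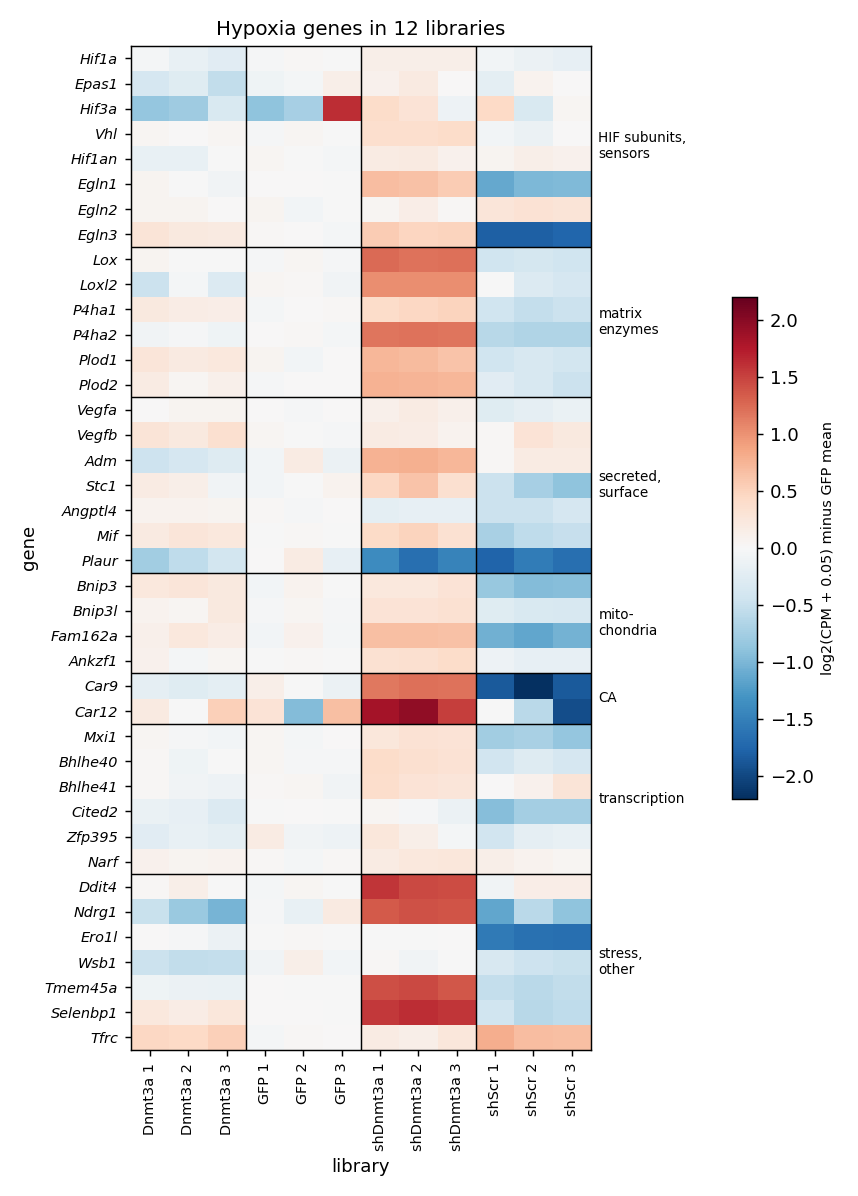
Levels of the 40 hypoxia genes in each of the 12 libraries, as log2(CPM + 0.05) minus the mean of the 3 GFP libraries, with red above and blue below that mean, genes in rows by role and libraries in columns by group. The shDnmt3a columns are red for most matrix enzymes and stress genes, the shScr columns are blue for Egln3, Egln1, Car9, Fam162a and Ero1l, and library 3 of GFP stands alone for Hif3a.

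**Figure D2:**
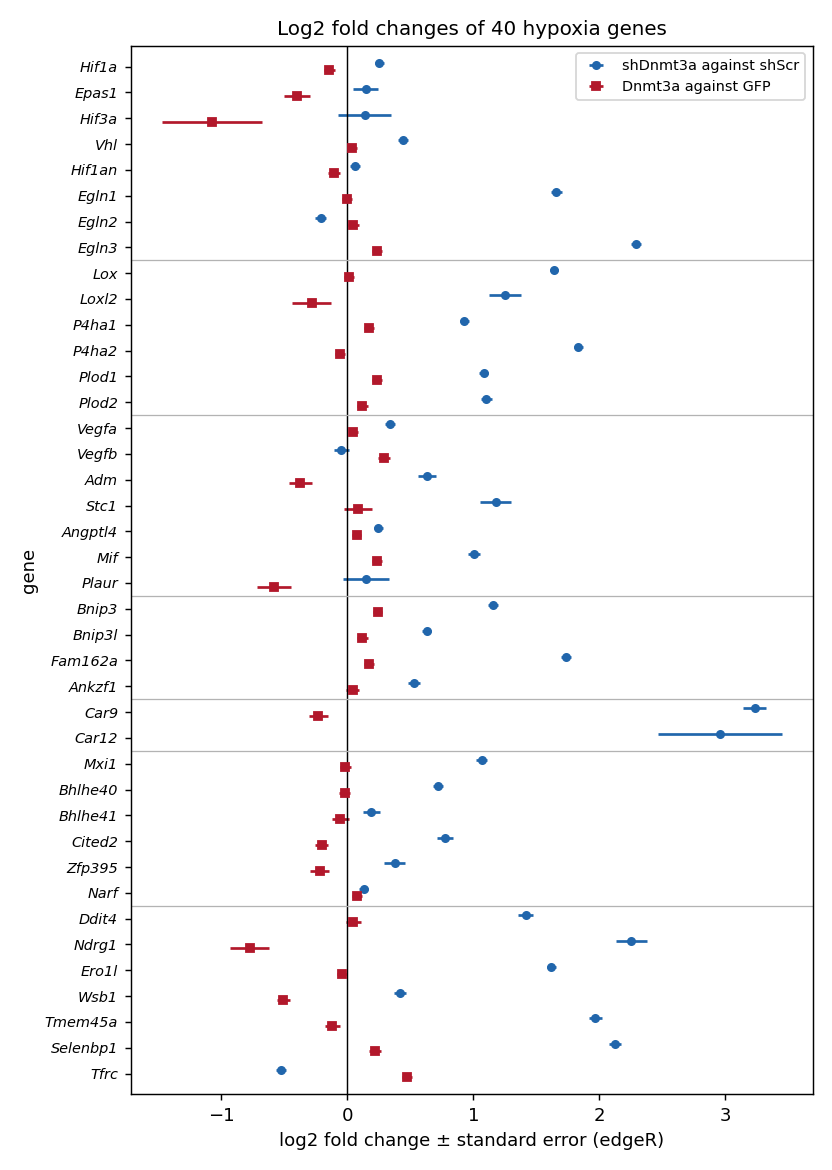
Log2 fold changes with standard errors of the 40 genes, for shDnmt3a against shScr (blue circles) and Dnmt3a against GFP (red squares), the horizontal axis in log2 units and the rows grouped by role. The blue circles run up to 3.23 for Car9, while all red squares lie between -1.07 for Hif3a and 0.48 for Tfrc.

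The HIF system itself moved unevenly. Of the 8 measured subunits and oxygen sensors, Hif1a, Vhl, Egln1 and Egln3 were higher in shDnmt3a libraries. Egln2 was lower, and Epas1, Hif3a and Hif1an were not called. Of all features tested, 23.3% were higher and 22.5% lower. In RPKM, which divides the scaled count by the length given in the table, Hif1a was by far the most abundant alpha subunit, at 49.8 ± 0.16 RPKM in shDnmt3a and 41.8 ± 1.8 RPKM in shScr libraries (SD, n = 3 each), where Epas1 had 1.49 ± 0.10 and 1.35 ± 0.14 RPKM and Hif3a 0.237 ± 0.044 and 0.217 ± 0.060 RPKM in the same groups.

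Egln3 and Egln1, the prolyl hydroxylases known in other cells as HIF targets, had the largest changes of the system. Egln3 was at 317, 300 and 303 CPM in shDnmt3a libraries, against 62.0, 62.1 and 64.2 CPM in shScr libraries, a 4.89-fold difference (log2 2.29, SE 0.038, edgeR adjusted p = 1.12e-18). Egln1, the main hydroxylase under normal oxygen, was at 295, 289 and 272 CPM in shDnmt3a libraries and 84.2, 93.2 and 93.7 CPM in shScr libraries, 3.16-fold higher (log2 1.66, SE 0.045, edgeR adjusted p = 2.86e-16). All 3 shDnmt3a libraries lay above all 3 shScr libraries for both genes. How often groups lay apart among all features was not counted, for these or for later genes. The third hydroxylase, Egln2, went the other way. Its levels were 59.7, 64.2 and 59.1 CPM in shDnmt3a libraries, against 69.5, 72.1 and 70.4 CPM in shScr libraries (log2 -0.21, SE 0.044, edgeR adjusted p = 0.00056), again without overlap. In RPKM, Egln3 stood first and Egln2 last of the 3 hydroxylases in shDnmt3a libraries, with 115 ± 3.3 for Egln3, 81.0 ± 3.3 for Egln1 and 27.7 ± 1.3 for Egln2, whereas in shScr libraries Egln2 stood first at 32.0 ± 0.59, followed by Egln1 at 25.6 ± 1.5 and Egln3 at 23.5 ± 0.46. The means of Egln1 and Egln3 in shScr libraries differed by little more than the spread of Egln1.

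Hif1a was 345, 346 and 347 CPM in shDnmt3a libraries and 303, 290 and 277 CPM in shScr libraries, a difference of 1.19-fold without overlap (log2 0.25, SE 0.036, edgeR adjusted p = 9.27e-06). Vhl, the substrate receptor of the ubiquitin ligase for HIF alpha, was 110, 110 and 113 CPM in shDnmt3a libraries, against 81.8, 78.4 and 85.3 CPM in shScr libraries (log2 0.44, SE 0.040, edgeR adjusted p = 2.35e-08). Both changes were thus small beside those of Egln3 and Egln1. Epas1, the alpha subunit also called HIF-2 alpha, was 7.93, 8.56 and 7.44 CPM in shDnmt3a libraries, against 6.39, 7.80 and 7.48 CPM in shScr libraries, and the groups overlapped (log2 0.15, SE 0.097, edgeR adjusted p = 0.241). Hif3a, whose products can restrain the other alpha subunits, was 1.92, 1.78 and 1.33 CPM in shDnmt3a libraries and 1.98, 1.13 and 1.49 CPM in shScr libraries, also with overlap (log2 0.14, SE 0.21, edgeR adjusted p = 0.621). Hif1an, the asparaginyl hydroxylase that blocks coactivator binding, was 75.3, 76.1 and 70.9 CPM in shDnmt3a libraries, against 69.3, 72.7 and 70.9 CPM in shScr libraries (log2 0.06, SE 0.042, edgeR adjusted p = 0.239). For these 3 genes a missed threshold does not show that the levels were equal.

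All 6 listed enzymes that modify or cross-link collagen were higher in shDnmt3a than in shScr libraries, where 23.3% of all features were higher. Lox, the lysyl oxidase that cross-links collagen and elastin, was 564, 545 and 549 CPM in shDnmt3a libraries and 175, 181 and 176 CPM in shScr libraries, 3.12-fold higher (log2 1.64, SE 0.034, edgeR adjusted p = 8.27e-18). Its relative Loxl2 was 5.62, 5.62 and 5.61 CPM in shDnmt3a libraries, against 2.72, 2.23 and 2.10 CPM in shScr libraries (log2 1.25, SE 0.12, edgeR adjusted p = 8.84e-08). P4ha2, a catalytic subunit of collagen prolyl 4-hydroxylase, was 245, 246 and 244 CPM in shDnmt3a libraries, against 70.7, 67.7 and 68.1 CPM in shScr libraries (log2 1.83, SE 0.036, edgeR adjusted p = 6.24e-18). Another catalytic subunit, P4ha1, rose by a log2 of 0.93. The lysyl hydroxylases Plod1 and Plod2 prepare collagen for cross-linking. Plod1 was 590, 577 and 548 CPM in shDnmt3a libraries, against 263, 279 and 268 CPM in shScr libraries (log2 1.08), and Plod2 was 128, 127 and 125 CPM in shDnmt3a libraries, against 63.0, 59.2 and 54.2 CPM in shScr libraries (log2 1.10). None of the 6 genes had overlapping groups, a separation whose share among all features was not counted.

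Among 14 tested genes of a wider list of collagen-modifying enzymes that left these 6 out, 5 were higher and 6 lower, with a median log2 fold change of -0.07, where 23.3% of all features were higher and 22.5% lower. Loxl3, another lysyl oxidase family member, fell by 1.13 on the log2 scale, while P4hb, the beta subunit shared by the prolyl 4-hydroxylases, rose by 0.50, the collagen chaperone Serpinh1 by 0.41 and Loxl4 by 0.57.

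Of the 7 secreted and surface signals, 5 were higher in shDnmt3a libraries, where 23.3% of all features were higher. The other 2, Vegfb and Plaur, were not called. Mif, a cytokine, was 212, 222 and 199 CPM in shDnmt3a libraries, against 96.8, 108 and 111 CPM in shScr libraries (log2 1.00, SE 0.049, edgeR adjusted p = 2.7e-12). Because Mif has near-identical pseudogene copies, reads could have been split between them. Stc1, a secreted glycoprotein hormone, was 6.77, 7.67 and 6.34 CPM in shDnmt3a libraries and 3.55, 2.97 and 2.65 CPM in shScr libraries (log2 1.18, SE 0.12, edgeR adjusted p = 1.78e-07). The vasodilator peptide gene Adm rose by a log2 of 0.63, and Vegfa, the best known angiogenic HIF target, rose by 0.34, as did the lipoprotein lipase inhibitor Angptl4 by 0.25. Vegfb, the relative of Vegfa that is not a classical hypoxia target, was 48.8, 47.8 and 45.2 CPM in shDnmt3a libraries, against 43.7, 52.5 and 49.97 CPM in shScr libraries. Plaur, the urokinase receptor, was 1.61, 1.33 and 1.52 CPM in shDnmt3a libraries, against 1.23, 1.44 and 1.33 CPM in shScr libraries. Both genes had overlapping groups, with log2 fold changes of -0.05 (SE 0.059) for Vegfb and 0.15 (SE 0.18) for Plaur.

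The 4 measured genes of mitochondria and cell survival were all higher, where 23.3% of all features were higher. Bnip3, a mitophagy receptor, was 1207, 1204 and 1263 CPM in shDnmt3a libraries, against 576, 533 and 540 CPM in shScr libraries (log2 1.16, SE 0.036, edgeR adjusted p = 2.74e-15). Fam162a, a mitochondrial protein linked to hypoxic cell death, was 295, 295 and 290 CPM in shDnmt3a libraries and 88.9, 84.5 and 90.6 CPM in shScr libraries, 3.33-fold higher (log2 1.74, SE 0.037, edgeR adjusted p = 9.42e-18). Bnip3l, the homolog of Bnip3, rose by 0.63 and Ankzf1, a factor in ribosome and mitochondrial quality control, by 0.53 on the log2 scale.

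The carbonic anhydrases, which convert carbon dioxide and water to bicarbonate and acid at the cell surface, had the largest fold changes of the 40 genes. Car9 was 34.4, 35.5 and 35.0 CPM in shDnmt3a libraries, against 4.21, 2.86 and 4.21 CPM in shScr libraries, 9.39-fold higher (log2 3.23, SE 0.094, edgeR adjusted p = 1.13e-15). Car12 had 23, 29 and 18 reads in shDnmt3a libraries, against 5, 3 and 0 reads in shScr libraries (log2 2.95, SE 0.49, edgeR adjusted p = 5.75e-05), so the groups did not overlap but the fold change rests on few reads.

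All 6 transcriptional regulators were called higher, where 23.3% of all features were higher. Mxi1, an antagonist of Myc, was 90.2, 93.9 and 93.0 CPM in shDnmt3a libraries, against 44.3, 46.0 and 41.9 CPM in shScr libraries (log2 1.07, SE 0.044, edgeR adjusted p = 2.84e-13). Cited2, which competes with HIF alpha for the coactivators p300 and CBP, rose by 0.77 on the log2 scale, the repressor Bhlhe40 by 0.72, Zfp395 by 0.38 and Narf, a lamin-binding nuclear protein, by 0.13. Bhlhe41, a circadian repressor related to Bhlhe40, was called higher although its groups overlapped. It was 25.9, 24.3 and 23.8 CPM in shDnmt3a libraries, against 19.9, 21.0 and 24.0 CPM in shScr libraries (log2 0.19, SE 0.069, edgeR adjusted p = 0.0283), and it lost its call without replicate 1 or 2 of shScr (adjusted p = 0.134 and 0.094) or without replicate 1 or 2 of shDnmt3a (adjusted p = 0.111 and 0.0604).

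Among the 7 stress and other intracellular genes, 6 were higher and Tfrc was lower, against 23.3% and 22.5% of all features. Ndrg1, a widely used hypoxia marker, was 9.19, 9.60 and 9.45 CPM in shDnmt3a libraries, against 1.60, 2.36 and 1.91 CPM in shScr libraries (log2 2.25, SE 0.12, edgeR adjusted p = 1.5e-11). Selenbp1, known in humans as a methanethiol oxidase, was 127, 132 and 128 CPM in shDnmt3a libraries, against 31.9, 28.0 and 29.3 CPM in shScr libraries (log2 2.12, SE 0.047, edgeR adjusted p = 1.55e-17), and its close paralog Selenbp2 makes the assignment of its reads uncertain. Tmem45a, a transmembrane protein, was 66.1, 67.4 and 63.2 CPM in shDnmt3a libraries, against 17.1, 16.4 and 16.8 CPM in shScr libraries (log2 1.97, SE 0.051, edgeR adjusted p = 1.8e-16). The fold changes of these 3 genes came next below that of Egln3 among the hypoxia genes listed. Ero1l, the oxidase that drives disulfide formation in the endoplasmic reticulum, was 728, 725 and 738 CPM in shDnmt3a libraries, against 248, 235 and 231 CPM in shScr libraries (log2 1.62, SE 0.035, edgeR adjusted p = 1.35e-17). Ddit4, an inhibitor of mTORC1 signaling, was 86.1, 79.2 and 78.0 CPM in shDnmt3a libraries, against 27.5, 31.9 and 31.8 CPM in shScr libraries (log2 1.42, SE 0.057, edgeR adjusted p = 1.74e-13). Wsb1, a substrate receptor of a ubiquitin ligase, changed less. It was 61.9, 58.2 and 60.8 CPM in shDnmt3a libraries and 47.9, 44.2 and 43.3 CPM in shScr libraries (log2 0.42, SE 0.048, edgeR adjusted p = 6.86e-07). Tfrc, the transferrin receptor that imports iron and whose mRNA is also stabilized when iron is scarce, was 332, 320 and 348 CPM in shDnmt3a libraries, against 509, 467 and 462 CPM in shScr libraries, with no overlap (log2 -0.52, SE 0.041, edgeR adjusted p = 3e-09).

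Lists of other hypoxia-related genes were examined in the same fit, in which 23.3% of all features were higher and 22.5% lower. Of 20 tested genes of glycolysis and glucose uptake, 17 were higher and 0 lower in shDnmt3a libraries, with a median log2 fold change of 0.84. Pgk1, a glycolytic kinase, was 2626, 2643 and 2698 CPM in shDnmt3a libraries, against 916, 865 and 925 CPM in shScr libraries (log2 1.56). The basal glucose transporter Slc2a1 rose by 1.59, lactate dehydrogenase Ldha by 1.17 and Gapdh, which has many near-identical pseudogenes, by 1.60. Of 44 other hypoxia-induced genes, with the higher Gpi1 also counted under glycolysis, 28 were higher and 2 lower, with a median of 0.59. Among their smallest p-values were those of the adenylate kinase Ak4 (log2 2.01), Ppp1r3c, which targets a phosphatase to glycogen (log2 1.75), and the receptor Gpr35 (log2 3.11), while the ligand Efna1 (log2 -0.61) and the creatine transporter Slc6a8 (log2 -0.57) were lower. Of 20 tested proteins that assemble with, degrade or coactivate HIF, 6 were higher and 0 lower, with a median of 0.04, a number of higher calls near that share of all features. The chaperones Hsp90aa1 (log2 0.41) and Hsp90ab1 (log2 0.31), the coactivator Crebbp (log2 0.44) and Rhobtb3 (log2 0.21), which promotes HIF-1 alpha degradation, led that list.

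Promoter windows of 300 bases, 250 before to 50 after a transcription start, were matched to 30 of the 40 genes in RefSeq's table for GRCm38.p6. They were searched on both strands for ACGTG and GCGTG, the core letters that HIF is known to bind, whose reverse complements are CACGT and CACGC. Neighbouring matches can overlap by a base. At least 1 match was found for 26 of the 30 genes (86.7%), for 65.4% of the 9018 genes that were tested on knock-down and had a window, and for 46.7% of all 27018 genes with a window. ACGTG alone was found for 66.7% of the 30 genes, 28.6% of the tested genes and 21.8% of all genes. The windows also differed in CpG content, with a median of 25 CpG for the hypoxia genes, 21 for the tested genes and 8 for all genes. This difference moved with the motif, whose letters contain CpG, and its part in the shares was not tested. A match is a string of letters and was not measured as a bound site. The sequences below are those of the 6 genes with the largest fold changes on knock-down whose window held a match. Their shared direction on knock-down follows from this choice. On overexpression Egln3, Selenbp1 and Fam162a were higher, Car9 was lower, and P4ha2 and Tmem45a were not called. Ndrg1 matched no window and the window of Car12 held no match. The capitals mark ACGTG or GCGTG on either strand, each window reads 5′ to 3′ along its gene, and all 6 were found once in the mm9 genome at the coordinates given. The sites differ in number and place: Car9 held its only match close to the start, Egln3 and Tmem45a 1 match far upstream, Selenbp1 2 stretches, P4ha2 4 and Fam162a 6.
Car9 (chr4:43519648-43519947, plus strand, first match at -18): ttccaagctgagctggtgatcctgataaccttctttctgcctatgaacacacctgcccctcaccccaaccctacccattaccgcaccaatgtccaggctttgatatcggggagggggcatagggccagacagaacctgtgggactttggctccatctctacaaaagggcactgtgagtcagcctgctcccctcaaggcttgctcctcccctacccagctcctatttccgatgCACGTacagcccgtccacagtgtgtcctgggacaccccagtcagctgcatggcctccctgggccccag
Egln3 (chr12:55304812-55305111, minus strand, first match at -229): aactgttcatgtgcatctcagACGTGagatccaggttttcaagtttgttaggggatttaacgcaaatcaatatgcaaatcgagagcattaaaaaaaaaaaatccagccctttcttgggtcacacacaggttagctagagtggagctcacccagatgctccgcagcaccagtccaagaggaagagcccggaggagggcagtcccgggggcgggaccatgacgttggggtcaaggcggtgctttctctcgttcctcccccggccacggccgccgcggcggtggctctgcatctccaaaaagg
Selenbp1 (chr3:94736755-94737054, plus strand, first match at -204): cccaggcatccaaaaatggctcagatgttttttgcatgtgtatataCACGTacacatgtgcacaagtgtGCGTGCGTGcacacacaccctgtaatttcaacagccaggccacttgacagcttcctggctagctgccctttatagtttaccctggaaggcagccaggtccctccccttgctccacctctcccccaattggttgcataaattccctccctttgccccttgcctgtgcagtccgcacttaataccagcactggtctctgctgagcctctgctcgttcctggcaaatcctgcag
Tmem45a (chr16:56886227-56886526, minus strand, first match at -166): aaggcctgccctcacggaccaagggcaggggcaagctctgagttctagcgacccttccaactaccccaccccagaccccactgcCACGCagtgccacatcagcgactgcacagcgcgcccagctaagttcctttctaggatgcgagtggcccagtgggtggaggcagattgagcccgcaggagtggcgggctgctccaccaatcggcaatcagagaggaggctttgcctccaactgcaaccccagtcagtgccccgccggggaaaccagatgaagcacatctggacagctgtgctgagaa
P4ha2 (chr11:53914176-53914475, plus strand, first match at -107): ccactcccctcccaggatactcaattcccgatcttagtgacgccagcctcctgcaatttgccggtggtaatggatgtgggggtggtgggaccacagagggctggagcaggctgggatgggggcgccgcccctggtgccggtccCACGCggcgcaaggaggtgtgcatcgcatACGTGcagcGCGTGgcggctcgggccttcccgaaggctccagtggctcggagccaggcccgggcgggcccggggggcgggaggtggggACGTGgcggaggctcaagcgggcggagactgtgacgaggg
Fam162a (chr16:36071598-36071897, minus strand, first match at -213): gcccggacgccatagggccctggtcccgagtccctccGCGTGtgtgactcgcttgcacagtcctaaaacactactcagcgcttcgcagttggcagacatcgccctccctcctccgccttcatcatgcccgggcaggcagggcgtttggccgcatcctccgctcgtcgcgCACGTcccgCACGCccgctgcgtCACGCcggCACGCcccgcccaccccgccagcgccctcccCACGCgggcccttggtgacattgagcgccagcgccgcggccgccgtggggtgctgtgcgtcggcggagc

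Overexpression of Dnmt3a changed fewer hypoxia genes, by less, and in both directions. Of the 39 genes tested, 11 were higher and 10 lower in Dnmt3a than in GFP libraries by edgeR's quasi-likelihood test at an adjusted p under 0.05, where 14.3% of all 14168 features were higher and 12.9% lower. With scaling by total counts only, 8 were higher and 14 lower. The other 18 genes were not called, and Car12, with 6, 4 and 9 reads in Dnmt3a libraries and 9, 2 and 9 reads in GFP libraries, did not reach the count filter. The median log2 fold change was 0.01, against -0.01 for all features. Egln3, Plod1, Mif and Bnip3 were each higher by a log2 of 0.24, P4ha1 and Fam162a by 0.17, Selenbp1 by 0.22, Vegfb by 0.29, and Plod2 and Bnip3l by 0.12.

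Tfrc and Wsb1 had the smallest p-values on overexpression. Tfrc was 402, 398 and 419 CPM in Dnmt3a libraries, against 285, 300 and 294 CPM in GFP libraries (log2 0.48, SE 0.038, edgeR adjusted p = 7.21e-12). Wsb1 was 44.0, 41.9 and 42.7 CPM in Dnmt3a libraries, against 57.8, 66.9 and 58.7 CPM in GFP libraries (log2 -0.51, SE 0.051, edgeR adjusted p = 1.29e-09). Both genes moved oppositely to their direction on knock-down, and neither had overlapping groups.

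Lower genes included several of low abundance. Ndrg1 was 2.54, 2.02 and 1.75 CPM in Dnmt3a libraries, against 3.50, 3.20 and 4.11 CPM in GFP libraries (log2 -0.77, SE 0.15, edgeR adjusted p = 0.000203). Plaur was 2.51, 2.90 and 3.21 CPM in Dnmt3a libraries, against 4.32, 4.84 and 3.77 CPM in GFP libraries (log2 -0.58, SE 0.14, edgeR adjusted p = 0.00122). Adm was 7.56, 7.99 and 8.48 CPM in Dnmt3a libraries, against 9.99, 11.8 and 9.49 CPM in GFP libraries (log2 -0.37, SE 0.091, edgeR adjusted p = 0.00193). In each of these 3 genes every Dnmt3a library lay below every GFP library. Cited2 (log2 -0.20), Zfp395 (log2 -0.22) and Car9 (log2 -0.23) fell as well.

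All 3 alpha subunits were called lower on overexpression, where 12.9% of all features were lower. Only the call for Epas1 held in all 15 alternative fits, and that for Hif1a was lost without replicate 2 or 3 of Dnmt3a. Epas1 was 5.77, 6.16 and 5.06 CPM in Dnmt3a libraries, against 6.99, 7.20 and 8.16 CPM in GFP libraries, without overlap (log2 -0.40, SE 0.10, edgeR adjusted p = 0.00345). Hif1a was 308, 282 and 266 CPM in Dnmt3a libraries, against 310, 323 and 315 CPM in GFP libraries (log2 -0.14, SE 0.043, edgeR adjusted p = 0.0106). The call for Hif3a rested on 1 library. It was 0.779, 0.814 and 1.14 CPM in Dnmt3a libraries and 0.755, 0.844 and 4.56 CPM in GFP libraries, or 36, 34 and 161 reads in the 3 GFP libraries (log2 -1.07, SE 0.40, edgeR adjusted p = 0.0417). Without replicate 3 of GFP its log2 fold change was 0.22 (edgeR adjusted p = 0.643). The sensors Egln1, at 191, 184 and 174 CPM in Dnmt3a and 185, 185 and 183 CPM in GFP libraries, and Egln2, at 60.9, 60.4 and 58.7 CPM in Dnmt3a and 60.4, 55.9 and 57.9 CPM in GFP libraries, overlapped between groups. Vhl, at 87.5, 85.8 and 88.1 CPM in Dnmt3a and 84.1, 87.4 and 84.4 CPM in GFP libraries, did so too (log2 0.04, SE 0.040). Hif1an, at 59.8, 59.5 and 65.9 CPM in Dnmt3a and 68.5, 66.5 and 64.7 CPM in GFP libraries, was not called either (log2 -0.10, SE 0.046, edgeR adjusted p = 0.0907). Egln3, at 263, 251 and 248 CPM in Dnmt3a and 220, 218 and 211 CPM in GFP libraries, was the only sensor called (edgeR adjusted p = 1.24e-05).

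Several of the smaller calls on overexpression were lost when 1 library was left out, which also weakens the test. The log2 fold change of Plod2 was 0.126 without replicate 3 of GFP and 0.119 with all libraries, yet the call was lost. That of Zfp395 was -0.117 without replicate 1 of GFP and -0.217 with all libraries. Without a named library, edgeR's adjusted p was 0.0504 for Hif1a without replicate 2 of Dnmt3a and 0.142 without replicate 3, 0.16 for Car9 without replicate 1 of GFP and 0.0706 without replicate 2 of Dnmt3a, and 0.312 for Zfp395 without replicate 1 of GFP and 0.102 and 0.0823 without replicates 1 and 3 of Dnmt3a. For Bnip3l it was 0.0891, 0.125 and 0.323 without replicates 1 and 3 of GFP and replicate 3 of Dnmt3a, and for Plod2 it was 0.0985, 0.0784, 0.202 and 0.0848 without replicates 1 and 3 of GFP and 1 and 3 of Dnmt3a. Hif3a was also not called without any 1 of the Dnmt3a replicates (adjusted p between 0.064 and 0.129).

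**Figure D3:**
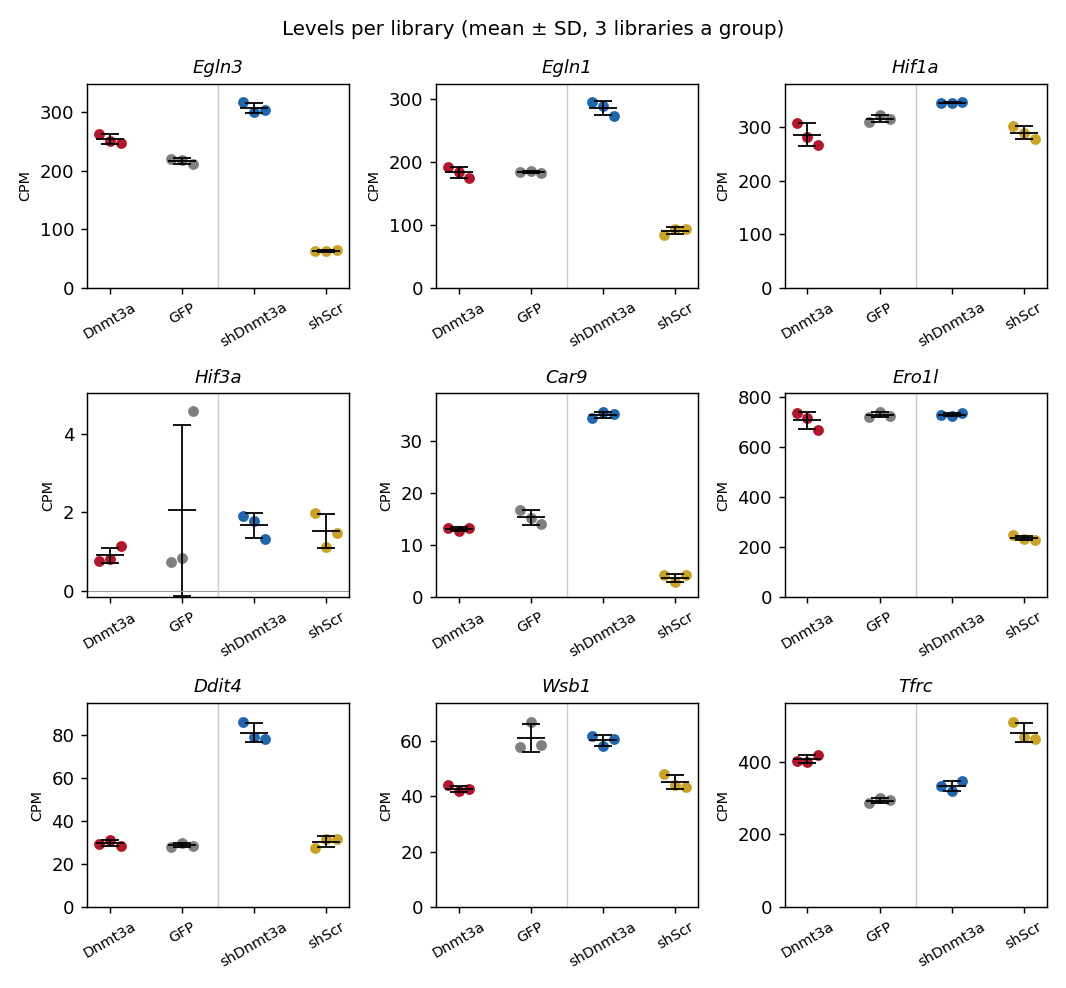
Levels in CPM of 9 of the genes in each library, with the group mean and SD (n = 3 each) as bars and the groups in the order Dnmt3a, GFP, shDnmt3a and shScr, each panel on its own linear axis. Egln3, Egln1, Car9 and Ero1l are lowest in shScr libraries, Ddit4 is high only in the shDnmt3a libraries (78.0 to 86.1 CPM), and Hif3a is set apart by 1 GFP library at 4.56 CPM.

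The directions of both manipulations were set side by side for the 39 genes tested in both, which share no library. Opposite changes, up with the hairpin and down with the transgene, were seen for 7 genes, Hif1a, Adm, Car9, Cited2, Zfp395, Ndrg1 and Wsb1, where 3.63% of the 13893 features tested in both showed this pattern. Higher in both manipulations were 9 genes, Egln3, P4ha1, Plod1, Plod2, Mif, Bnip3, Bnip3l, Fam162a and Selenbp1, where 3.64% of the features did. Tfrc alone was down with the hairpin and up with the transgene, a pattern of 838 of the 13893 features. Lower in both were 0 genes, against 430 of these features. Of the 7 genes, Hif1a, Car9 and Zfp395, and of the 9, Plod2 and Bnip3l, are among those that lost their call on overexpression without 1 library.

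In 1 fit of all 12 libraries, the sum of both log2 effects, which is 0 where they are equal and opposite, was above 0 for 29 of the 40 genes and below 0 for Egln2 alone (edgeR's quasi-likelihood test at an adjusted p under 0.05), against 18.7% and 18.4% of all 14491 features. The sum for Egln2 was -0.17 (SE 0.061, edgeR adjusted p = 0.0331), and it was not called without replicate 3 of GFP or Dnmt3a, replicate 2 of shScr or replicate 1 or 3 of shDnmt3a. For Tfrc the sum was -0.05 (SE 0.057, edgeR adjusted p = 0.496), for Wsb1 -0.10 (SE 0.074, edgeR adjusted p = 0.328) and for Hif1a 0.11 (SE 0.059, edgeR adjusted p = 0.162). None of these 3 sums was called, and only that of Tfrc was smaller than its error. A missed threshold does not show that the opposite effects were equal in size. Of the other genes called in opposite directions, Adm (sum 0.26, SE 0.12, edgeR adjusted p = 0.0841) and Zfp395 (sum 0.16, SE 0.12, edgeR adjusted p = 0.328) were not called either. Car9, Cited2 and Ndrg1 had sums called above 0. For Egln3 the sum was 2.52 (SE 0.053), for Car9 3.00 (SE 0.13) and for Egln1 1.65 (SE 0.060).

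The control groups differed from each other. Of the 40 genes, 27 were lower in shScr than in GFP libraries and 4, Egln2, Vegfb, Narf and Tfrc, were higher, against 22.8% and 23.7% of all features, with a median log2 fold change of -0.40. In shDnmt3a against GFP libraries, 31 were higher and 2, Angptl4 and Plaur, lower, against 23.6% and 22.8% of all features, with a median of 0.36. Of these, 9 genes were at least 2-fold higher, a size reached by 2.53% of all features, beside the 19 genes at least 2-fold higher against shScr. These comparisons share the GFP libraries, the first shares the shScr libraries with the knock-down comparison and the second shares its shDnmt3a libraries, so none of them is independent of the others. The constructs differ between the control groups, and any difference in virus, handling or batch cannot be told apart from them. Cell type markers differed too. Of 24 tested, 6 were higher and 10 lower in shScr than in GFP libraries, against 23.7% and 22.8% of all features. The adipocyte marker sums of these groups did not overlap. The part of the markers in the difference between the controls was not tested. Without replicate 2 of shScr, 2 genes were higher in shScr than in GFP libraries.

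Read against GFP, the knock-down changes took different forms. On the log2 scale relative to GFP, Ero1l was 0.00 (SE 0.036) in shDnmt3a libraries and -1.61 (SE 0.037) in shScr libraries, so its levels in shDnmt3a and GFP libraries differed by less than their error. Cited2 was -0.04 in shDnmt3a and -0.80 in shScr libraries, and Wsb1 was -0.02 in shDnmt3a and -0.43 in shScr libraries. Egln3, at 0.50 in shDnmt3a and -1.78 in shScr libraries, and Car9, at 1.19 in shDnmt3a and -2.04 in shScr libraries, lay on both sides of GFP. Ddit4 was 1.49 in shDnmt3a libraries and 0.08 (SE 0.059, edgeR adjusted p = 0.257) in shScr libraries. Lox was 1.22 in shDnmt3a and -0.41 in shScr libraries, and Selenbp1 was 1.59 in shDnmt3a and -0.53 in shScr libraries. Plaur was lower than in GFP libraries in both hairpin groups, at -1.54 in shDnmt3a and -1.68 in shScr libraries, and Tfrc was higher in both, at 0.18 in shDnmt3a and 0.72 in shScr libraries.

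**Figure D4:**
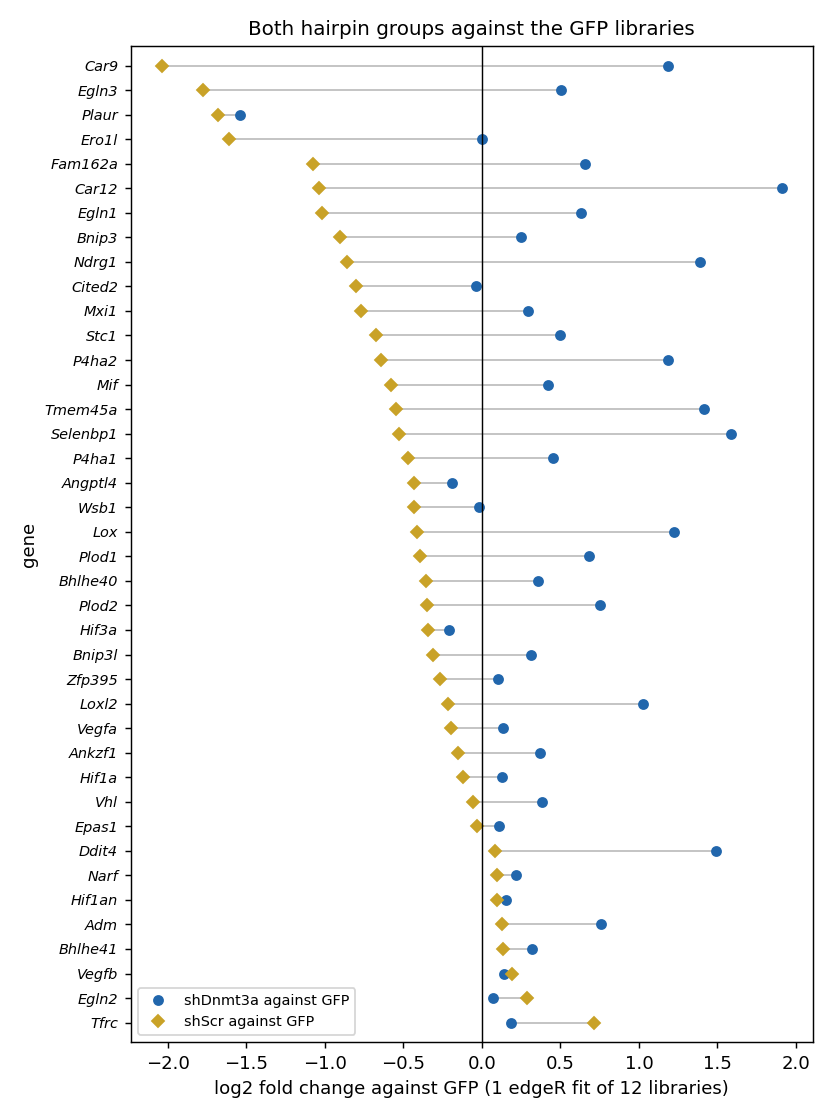
Log2 fold changes against the 3 GFP libraries of shDnmt3a (blue circles) and shScr (yellow diamonds) for the 40 genes, in log2 units from 1 fit of all 12 libraries, ordered by the shScr value. Car9 and Egln3 lie on both sides of 0, Ero1l in shDnmt3a libraries lies at 0, and Ddit4 in shScr libraries lies near 0.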

How the data were processed

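RNA was depleted of ribosomal RNA, made into TruSeq libraries and sequenced on a HiSeq2500. Per the published methods and the submitters' processing notes, the authors aligned reads to mm9 with TopHat2 (2.0.14), handled them with Picard (2.2.4) and SAMtools (0.1.19) and counted them per feature with featureCounts (1.4.6). The deposited values are raw counts, not normalized. The counting's strand setting is not stated in these sources, and 8 of the 40 genes (Hif1a, Egln2, Loxl2, Ankzf1, Car9, Mxi1, Bhlhe40, Ndrg1) overlap a gene on the other strand and Narf overlaps Foxk2 on its own strand. The authors counted on an annotation altered to reduce such overlaps. Groups were taken from the labels.

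Counts were scaled by TMM and fitted in edgeR (4.0.16, under R 4.3.3; quasi-likelihood test) on features passing filterByExpr (minimum count 10), one fit per manipulation and 1 fit of all 12 libraries for contrasts with GFP and for the sum of effects. Benjamini-Hochberg adjustment ran over all features tested, with calls made at an adjusted p under 0.05. CPM and RPKM use the 12-library factors, and RPKM the length in the table. The script was tested on simulated data.

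The gene list, its role groups and the other lists were chosen with earlier results of these data known. Given in every library were Dnmt3a, HIF subunits and sensors, called genes changed at least 2-fold, the 2 smallest p on overexpression, genes called against their role group and genes under the filter, beside some others given after their values were seen. Of each other list, the 4 smallest p on knock-down were named, except for 1 gene that is not reported here. Promoters came from RefSeq (GRCm38.p6). Alternatives were other scalings, filters, thresholds and tools (DESeq2 1.42.0), a replicate block, summed features of 1 symbol, and leaving out each library.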

Additional observations from a re-analysis of the deposited data

How the results depend on the processing

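On knock-down, 32 or 33 of the 40 genes were higher and 2 lower under every alternative run. The call for Bhlhe41 was lost under some, and with a minimum of 1 CPM in 3 libraries Car12 was not tested. On overexpression, between 8 and 11 were higher and between 6 and 14 lower, the lowest value of 6 at an adjusted p under 0.01. Over all features on overexpression, scaling by total counts only gave 1177 higher and 3286 lower calls, against 2024 and 1826 with TMM, and an adjusted p under 0.01 gave 1143 lower calls. Under total counts Plod2, Bnip3l and Fam162a lost their calls on overexpression, and Hif1an, P4ha2, Ero1l and Tmem45a became lower. Zfp395 and Hif3a lost theirs in DESeq2 and in the fit of all 12 libraries. The sum of both effects was below 0 for 0 genes with upper quartile scaling and at an adjusted p under 0.01, and for 2 with no filter. The causes were not tested.

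Leaving out single libraries gave 32 to 33 higher calls on knock-down and 7 to 10 lower calls on overexpression, 2 to 6 genes higher in shScr than in GFP libraries, 0 to 1 gene with a sum below 0, and 4 to 11 lower genes of the wider lists on knock-down (4 without replicate 3 of shScr, 8 with all libraries). The log2 fold change of Hif3a on overexpression was -1.51 without replicate 1 of GFP, the lowest, and 0.22 without replicate 3, the highest. Groups share replicate numbers, but same-numbered libraries did not deviate together (correlations of -0.049 to 0.01). With the replicate number as a block, 33 genes were higher and 2 lower on knock-down, and 11 higher and 10 lower on overexpression. With 3 libraries a group, genes of few reads such as Car12, Hif3a and Loxl2 are measured with the largest errors.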
